A study of Mus musculus with 16 samples.

Results

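Tissue inhibitors of metalloproteinases and the matrix proteases they hold in check were followed in quadriceps muscle of mice carrying the C26 colon carcinoma. The 8 genes were chosen by name from the 13320 genes with counts: the inhibitors Timp1, Timp2, Timp3 and Timp4, the matrix metalloproteinases Mmp2 and Mmp14, and the disintegrin metalloproteinases Adamts1 and Adamts5. All 8 were measured and passed the filter on low counts. Matrix metalloproteinases and Adamts enzymes are zinc proteases that cut collagens, proteoglycans and other matrix proteins, and most are made as inactive precursors. Timp proteins block their active sites; Timp2 also takes part in the activation of the Mmp2 precursor by Mmp14 at the cell surface, and Timp3 stays bound to the matrix and inhibits several Adamts and Adam enzymes. In skeletal muscle much of this system is made by interstitial fibroblast-like cells, among them the fibro-adipogenic progenitors, with contributions from vessels, tendon, immune cells and fibres.

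The 16 libraries fell into 4 groups of 4, all from male CD2F1 animals aged 8 weeks when the study began, for which the labels name no engineered allele. C26 cells were placed in the spleen, as a model of spread to the liver, and compared with sham-operated mice given saline. C26 cells placed under the skin were compared with a control group whose treatment the labels do not give. The labels do not say how many weeks passed, nor that each library came from a separate animal, so the p-values reflect the spread among libraries, which may be technical. Library titles of the sham and splenic groups share a prefix, and those of the control and subcutaneous groups share another, so the site of the tumour and that prefix cannot be told apart.

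Total counts were 25.9 to 34.9 M per library, read as 75-base paired ends. Levels are in CPM, the share of a library's counts on a common scale, adjusted by TMM, a method that sets library sizes from the bulk of genes. All 9 muscle fibre markers examined were measured, and their sum was 112600 to 264000 CPM over the 16 libraries. Splenic replicate 1 stood apart from its group, with fibro-adipogenic progenitor markers summing to 2294 CPM against 722 to 910 in the other 3 splenic libraries and 1925 to 2587 in sham. The mean log2 CPM of these markers, which weighs them alike, was 5.90 against 4.07 to 4.45, and 5.85 to 6.22 in sham. Neutrophil markers, 8 of 9 measured, summed to 174 CPM in splenic replicate 3 against 4.41 to 17.6 in the rest of its group, and to 47.2 in control replicate 1 against 1.34 to 3.23. Hepatocyte markers, 9 of 9 measured, differed between the groups: 6 rose and 0 fell in the splenic model, and 0 rose and 8 fell in the subcutaneous model. Their mean log2 CPM was 2.03 to 4.51 in control, 3.78 in splenic replicate 1 and -1.92 to -0.39 in the other 11 libraries. Subcutaneous replicate 4 held 61.4 CPM of proliferation and 114 CPM of red blood cell markers, against up to 2.98 and 28.3 in the rest of its group. The part of these transcripts in the values of the 8 genes was not tested. Values without such libraries are given where they change a call or move a value by over 1.5 times. Fewer cells of a type and less RNA per cell cannot be told apart in bulk tissue.

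Upstream sequences are shown for Timp1, Timp3 and Adamts1, which had different responses to the tumour, followed by the stretch of the first exon of Timp1 that holds a variant of the AP-1 element. They come from RefSeq on GRCm38.p6 and run 5′ to 3′ on the strand of the gene. The upstream windows of Timp1 and Adamts1 hold 250 bases and end at the base before the annotated start. That of Timp3 was cut to 210 bases. It ends before the GENCODE start at 86300372, which lies upstream of the RefSeq start at 86300412. Capitals mark matches to the searched motifs.
Timp1, chrX:20869916-20870165, plus strand: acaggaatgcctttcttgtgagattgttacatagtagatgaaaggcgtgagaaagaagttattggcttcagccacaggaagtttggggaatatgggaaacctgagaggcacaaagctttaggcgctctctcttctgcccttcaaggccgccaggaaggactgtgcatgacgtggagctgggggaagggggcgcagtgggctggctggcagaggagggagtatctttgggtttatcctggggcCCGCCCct
Timp3, chr10:86300162-86300371, plus strand: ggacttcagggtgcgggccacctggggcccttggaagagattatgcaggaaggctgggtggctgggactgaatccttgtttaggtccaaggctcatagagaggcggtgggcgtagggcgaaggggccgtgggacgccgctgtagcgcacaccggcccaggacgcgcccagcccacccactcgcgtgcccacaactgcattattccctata
Adamts1, chr16:85803114-85803363, minus strand: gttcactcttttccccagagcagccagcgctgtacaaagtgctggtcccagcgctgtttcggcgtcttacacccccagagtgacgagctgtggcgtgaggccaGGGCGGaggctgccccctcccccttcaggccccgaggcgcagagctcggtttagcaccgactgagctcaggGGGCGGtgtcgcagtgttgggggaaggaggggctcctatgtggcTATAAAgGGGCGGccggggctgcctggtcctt
Timp1 first exon, chrX:20870185-20870205, plus strand: gggtggaTGAGTAAtgcgtcc
The motifs searched on both strands were the AP-1 element TGANTCA, its variant TGAGTAA, the STAT element TTCNNNGAA, the FoxO element GTAAACA, the Sp1 box GGGCGG and the TATA box TATAAA. None overlaps another of these motifs at the matches shown. Entries were found for 6 of the 8 genes, all but Mmp2 and Adamts5. The upstream window of Timp1 had an Sp1 box on the opposite strand, first base at position -8, and the variant AP-1 element in its first exon began at base 27, counting the start as base 1. No motif matched in the printed window of Timp3, which is shorter than the 250-base windows counted below. Past its end, Sp1 boxes on the opposite strand began at -15 and at base 14 from the RefSeq start of Timp3. The Adamts1 window held Sp1 boxes at -147, -76 and -25 and a TATA box at -32. Over all 32851 windows of 250 bases before a start, 32.7% held an Sp1 box, 12.4% a TATA box, 7.02% the STAT element, 6.75% the AP-1 element, 3.17% the FoxO element and 2.25% the AP-1 variant; the variant occurred in 2.68% of windows of 300 bases that run past the start. No AP-1 element TGANTCA, STAT or FoxO match was found in the windows of the 6 genes.

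The inhibitors moved apart under the tumour: Timp1 rose and Timp2 and Timp3 fell in both models, while Timp4 rose in the subcutaneous model. Of the proteases, Mmp14 and Adamts1 rose in the splenic model, Adamts5 fell in the subcutaneous model, and Mmp2 did not pass the test in either. Thus 5 of the 8 genes were called in splenic C26 against sham, 3 higher and 2 lower, at an adjusted p under 0.05 by edgeR's quasi-likelihood test with Benjamini-Hochberg adjustment over all genes. Of all 13320 genes, 52.0% were called in that comparison, 28.1% higher and 23.9% lower. In subcutaneous C26 against control, 5 of the 8 were called, 2 higher and 3 lower, where 50.0% of all genes were called, 27.0% higher and 23.1% lower. The share of the 8 genes called was thus near the share of all genes in both models. Their median log2 fold change was 0.12 in the splenic and 0.014 in the subcutaneous model, beside -0.029 and -0.022 over all genes. All 4 libraries of each tumour group lay outside the range of the tumour-free group for 3 genes in the splenic model (Timp1, Timp2, Timp3) and 5 in the subcutaneous model (Timp1, Timp2, Timp3, Timp4, Adamts5); over all genes 42.2% (21.1% higher, 21.1% lower) and 45.9% (25.2% higher, 20.7% lower) were separated in this way.

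**Figure D1:**
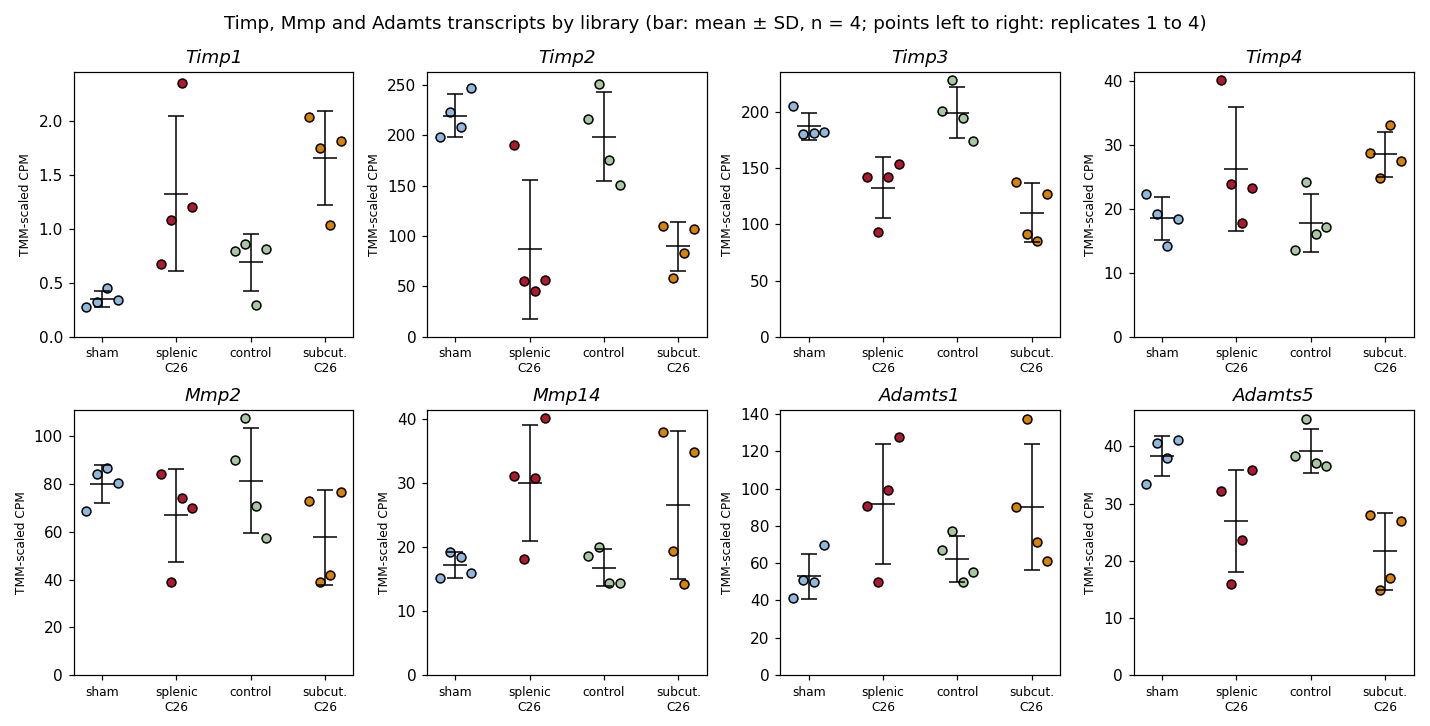
TMM-scaled CPM of the 8 genes in each of the 16 libraries, 1 panel per gene with its own axis from 0; bars are group means with SD (n = 4) and points run from replicate 1 to 4. Timp2 falls from 198 to 247 CPM in sham to 45.9 to 56.3 in 3 splenic libraries, with splenic replicate 1 at 190, whereas Timp1 is higher in every tumour library than in any library of its matched group.

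Timp1 is the inducible inhibitor of the family, released as a soluble protein and known as an acute-phase and cytokine target. It was the least abundant of the 8 genes. In sham it stood at 0.273, 0.326, 0.455 and 0.343 CPM in replicates 1 to 4, and in splenic C26 at 0.670, 1.08, 2.35 and 1.20. In the control group the values were 0.794, 0.858, 0.291 and 0.813 CPM, and in subcutaneous C26 they were 2.04, 1.75, 1.04 and 1.81. The groups did not overlap in either model, and splenic replicate 3 was the highest of the 16 libraries. Timp1 rose 3.71-fold in the splenic model (log2 fold change 1.89 ± 0.42 SE, edgeR adjusted p = 0.00202). It rose in the subcutaneous model by a log2 fold change of 1.26 ± 0.39 SE (edgeR adjusted p = 0.0154). These values rest on 8 to 64 reads per library; the exact Poisson 95% interval of 8 reads is 3.45 to 15.8, and that of 64 reads is 49.3 to 81.7, for counting error only. Splenic replicate 3, the highest for Timp1, was also the library with the most neutrophil transcripts, at 174 CPM. In the subcutaneous group, replicate 1 was the highest for Timp1 and for neutrophil markers, at 27.9 CPM. Control replicate 1, with 47.2 CPM of these markers, was not the highest control library for Timp1. Without splenic replicate 3, Timp1 still rose in the splenic model, by a log2 fold change of 1.47 (edgeR adjusted p = 0.00779). Between the tumour-free groups Timp1 was lower in sham than in control by a log2 difference of -0.97 ± 0.42 SE, which did not pass the adjustment (unadjusted p = 0.0337, edgeR adjusted p = 1). The gene lies on the X chromosome from 20870166 to 20874735 (GRCm38, GENCODE), within the span of Syn1 on the other strand, with which it shares 0 exon bases.

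Timp2 is the constitutive inhibitor that pairs with Mmp14 in the activation of the Mmp2 precursor. Sham replicates 1 to 4 had 198, 223, 208 and 247 CPM, and splenic C26 replicates had 190, 55.0, 45.9 and 56.3. Control libraries had 216, 251, 176 and 151 CPM, and subcutaneous C26 libraries had 110, 58.3, 83.1 and 107. Splenic replicate 1 lay just under the lowest sham library, and the other 3 splenic libraries were far below it. Timp2 fell 2.52-fold in the splenic model (log2 fold change -1.34 ± 0.38 SE, edgeR adjusted p = 0.00882). Without splenic replicate 1 the log2 fold change was -2.06 (edgeR adjusted p = 5.46e-06). In the subcutaneous model the fall was -1.15 ± 0.37 SE on the log2 scale (edgeR adjusted p = 0.0197), and it was not called without subcutaneous replicate 2 (log2 fold change -1.02, edgeR adjusted p = 0.0584). The gene occupies chromosome 11 from 118301069 to 118355740 on the minus strand.

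Timp3 is the inhibitor held in the matrix. Its sham values were 206, 181, 181 and 182 CPM, and its splenic C26 values 143, 92.9, 142 and 154. Control libraries had 201, 229, 195 and 174 CPM, and subcutaneous C26 libraries 138, 91.6, 85.3 and 127. Every tumour library lay below every library of its matched group. Timp3 fell 1.41-fold in the splenic model (log2 fold change -0.50 ± 0.18 SE, edgeR adjusted p = 0.0279). That call was lost without splenic replicate 2, the lowest library (log2 fold change -0.36, edgeR adjusted p = 0.0841), without sham replicate 1 (adjusted p = 0.0699) and without sham replicate 2 (adjusted p = 0.0520). The fall in the subcutaneous model was -0.85 ± 0.18 SE on the log2 scale (edgeR adjusted p = 0.00152). Timp3 lies on chromosome 10 from 86300372 to 86349506 inside Syn3, which runs on the opposite strand, and 1733 of its exon bases (21.3%) are also exon of Syn3. Whether counting used strand is not given in the sources used here; Syn3 itself averaged 0.133 to 0.630 CPM per group.

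Timp4 is the family member known for its high level in heart and skeletal muscle and in fat. Sham libraries had 22.3, 19.2, 14.2 and 18.5 CPM, and splenic C26 libraries had 40.1, 23.9, 17.8 and 23.3. In control the values were 13.6, 24.3, 16.2 and 17.2 CPM, and in subcutaneous C26 they were 28.8, 24.8, 33.1 and 27.5. The subcutaneous and control groups did not overlap, although control replicate 2 came close to subcutaneous replicate 2, and splenic replicate 3 fell within the sham range. Timp4 rose in the subcutaneous model (log2 fold change 0.68 ± 0.23 SE, edgeR adjusted p = 0.0227). The splenic value was 0.51 ± 0.23 SE on the log2 scale and did not pass the test (edgeR adjusted p = 0.0746). It was 0.24 without splenic replicate 1 (adjusted p = 0.295), and it was called without splenic replicate 3 (0.65, adjusted p = 0.0298). The subcutaneous call was lost without control replicate 1 (0.55, edgeR adjusted p = 0.0777) and without control replicate 3 (0.64, adjusted p = 0.0573). Timp4 lies on chromosome 6 from 115241892 to 115252205 inside Syn2 on the opposite strand and shares 90 exon bases (1.53% of its exons) with it. Syn2 averaged 0.732 CPM in sham and 9.63 in splenic C26, and 1.40 in control and 8.56 in subcutaneous C26; its part in the Timp4 values was not tested.

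Mmp2, gelatinase A, cuts denatured collagen and basement membrane collagen. Its sham libraries had 68.9, 84.3, 86.8 and 80.3 CPM, and the splenic C26 libraries 84.4, 38.9, 74.1 and 70.2. Control libraries had 90.0, 107, 70.9 and 57.3 CPM, and subcutaneous C26 libraries 73.1, 39.0, 42.0 and 76.7. The groups overlapped in both models, with splenic replicate 2 and subcutaneous replicates 2 and 3 as the low libraries. The log2 fold change was -0.26 ± 0.26 SE in the splenic model (edgeR adjusted p = 0.419) and -0.50 ± 0.26 SE in the subcutaneous model (edgeR adjusted p = 0.126), and neither was called. The splenic value was -0.07 without splenic replicate 2 (edgeR adjusted p = 0.824) and -0.54 without splenic replicates 1 and 3, control replicate 1 and subcutaneous replicate 4 (adjusted p = 0.172). Mmp2 lies on chromosome 8 from 92827291 to 92853420.

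Mmp14 is the membrane-anchored collagenase that activates the Mmp2 precursor at the cell surface. It stood at 15.1, 19.3, 18.5 and 15.9 CPM in sham and at 31.1, 18.1, 30.8 and 40.1 in splenic C26. In control it stood at 18.5, 20.0, 14.3 and 14.4 CPM, and in subcutaneous C26 at 37.9, 19.4, 14.3 and 34.8. Splenic replicate 2 and subcutaneous replicates 2 and 3 stayed at or near the tumour-free range, and the remaining tumour libraries were all above it. Mmp14 rose 1.75-fold in the splenic model (log2 fold change 0.81 ± 0.28 SE, edgeR adjusted p = 0.0256). The call was lost without splenic replicate 4 (0.64, edgeR adjusted p = 0.0918), sham replicate 1 (adjusted p = 0.0627) or sham replicate 4 (adjusted p = 0.0592). The subcutaneous value of 0.66 ± 0.28 SE was not called (edgeR adjusted p = 0.0599); it was 0.43 without subcutaneous replicate 1 (adjusted p = 0.237), and it was called without subcutaneous replicate 3 (0.87, adjusted p = 0.00871) and without splenic replicate 2, which enters the shared estimate of spread (adjusted p = 0.0414). Mmp14 lies on chromosome 14 from 54431612 to 54445364.

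Adamts1 is a secreted protease of versican and other proteoglycans that is known as an inflammation- and injury-induced gene. Sham libraries had 41.2, 50.8, 49.9 and 69.7 CPM, and splenic C26 libraries 90.8, 49.9, 99.2 and 128. Control libraries had 67.3, 77.2, 49.8 and 55.4 CPM, and subcutaneous C26 libraries 90.0, 137, 71.2 and 61.1. The groups overlapped in both models, since splenic replicate 2 and subcutaneous replicates 3 and 4 lay within the tumour-free range. Adamts1 rose 1.74-fold in the splenic model (log2 fold change 0.80 ± 0.28 SE, edgeR adjusted p = 0.0277). This call was lost when splenic replicate 3 or 4, or sham replicate 1, 2 or 3, was left out, with edgeR adjusted p between 0.0594 and 0.108. The subcutaneous value was 0.53 ± 0.28 SE on the log2 scale and was not called (edgeR adjusted p = 0.130). It was 0.21 without subcutaneous replicate 2, the highest library (edgeR adjusted p = 0.553).

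Adamts5, the main aggrecan-cleaving enzyme of cartilage, also cuts versican and is a target of inhibition by Timp3. It is the neighbour of Adamts1 on chromosome 16: Adamts1 runs from 85793827 to 85803113 and Adamts5 from 85856173 to 85901828, both on the minus strand, 53059 bases apart with 0 protein-coding genes between them. Adamts5 stood at 33.5, 40.5, 37.9 and 41.2 CPM in sham and 32.2, 15.997, 23.6 and 35.9 in splenic C26. It stood at 38.3, 44.8, 37.1 and 36.6 CPM in control and 27.9, 14.8, 17.0 and 27.0 in subcutaneous C26. The subcutaneous libraries all lay below the control libraries, while splenic replicate 4 reached into the sham range. Adamts5 fell in the subcutaneous model (log2 fold change -0.85 ± 0.23 SE, edgeR adjusted p = 0.00769), and the splenic value of -0.51 ± 0.23 SE was not called (edgeR adjusted p = 0.0781). The splenic value was called without splenic replicate 4 (-0.67, edgeR adjusted p = 0.0361) and was -0.32 without splenic replicate 2 (adjusted p = 0.213). It was also called when splenic replicate 1 and subcutaneous replicate 3 were both left out (-0.60, edgeR adjusted p = 0.0429). The 2 neighbours thus took opposite signs in both models, each with a single call.

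**Figure D2:**
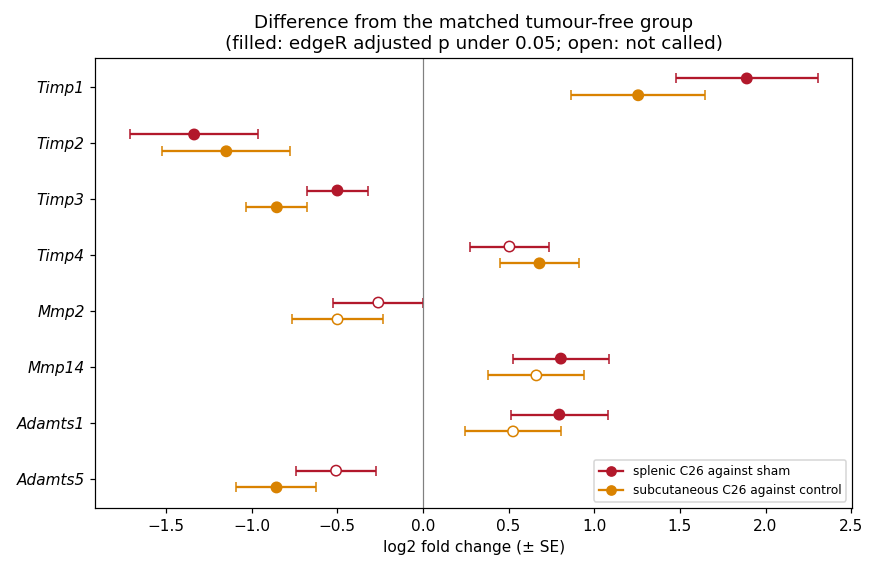
Log2 fold change of each gene against its matched tumour-free group with its SE, for the splenic and the subcutaneous model; filled points passed an edgeR adjusted p of 0.05. Timp1 is the highest in both models at 1.89 and 1.26, and Timp2 the lowest at -1.34 and -1.15.

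Scaling decided several of the smaller calls. Under upper-quartile scaling the all-gene median log2 fold change moved to -0.236 in the splenic and -0.260 in the subcutaneous model, and the share of called genes that were higher moved from 54.0% to 38.5% and from 53.9% to 34.9%. No gene of the 8 changed sign in either tumour comparison. Mmp14 (edgeR adjusted p = 0.0858) and Adamts1 (adjusted p = 0.0846) were then not called in the splenic model, nor Timp4 in the subcutaneous model (log2 fold change 0.44, adjusted p = 0.159). Adamts5 was called in the splenic model under that scaling (-0.71, edgeR adjusted p = 0.0250) and Mmp2 in the subcutaneous model (-0.74, adjusted p = 0.0363). Without splenic replicates 1 and 3, control replicate 1 and subcutaneous replicate 4, 2 of the 8 were called in the splenic model, Timp1 (1.70, edgeR adjusted p = 0.00660) and Timp2, beside 54.2% of all genes, and 5 of the 8 in the subcutaneous model, beside 44.5%. Without splenic replicate 1 and control replicates 2 and 4, which had the highest mean log2 CPM of hepatocyte markers, 4 of the 8 were called in the splenic model, Mmp14 lost (0.79, edgeR adjusted p = 0.0515), beside 59.3% of all genes. In the subcutaneous model the same 5 of the 8 were then called, beside 41.9%; that set was chosen after seeing the data.

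The difference between the tumour effects (splenic minus subcutaneous, each against its own tumour-free group) was tested as an interaction. None of the 8 genes was called; the log2 differences ran from -0.19 ± 0.52 SE for Timp2 to 0.63 ± 0.56 SE for Timp1, with edgeR adjusted p from 0.906 to 0.985, and 0 of the 8 had an unadjusted p under 0.05. Over all 13320 genes edgeR called 0 (0%), while 851 had an unadjusted p under 0.05 and DESeq2 called 86, none of the 8 among them. Timp3 and Adamts5, whose splenic values were nearer 0, had interaction values of 0.35 ± 0.25 SE and 0.35 ± 0.33 SE. For sham against control, edgeR called 0 of the 8 and 1 of all genes (0.00751%), with 285 genes at an unadjusted p under 0.05 and 58 called by DESeq2. The 2 tumour-free groups overlapped for all 8 genes; 4.86% of all genes were separated, 2.46% higher and 2.39% lower in sham.

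The order of transcript levels was read from the deposited log2 values, which compare genes per length. In sham it ran from Timp2 at 5.92 ± 0.14 (SD, n = 4) through Timp3 at 5.32 ± 0.09, Mmp2 at 4.72 ± 0.15, Timp4 at 3.70 ± 0.27, Adamts1 at 3.41 ± 0.31, Mmp14 at 2.72 ± 0.17 and Adamts5 at 2.24 ± 0.14 to Timp1 at -1.11 ± 0.26. Of the neighbours in that order, Timp4 and Adamts1 alone overlapped. Control gave the same leading 3 genes, Timp2 at 5.75 ± 0.32, Timp3 at 5.41 ± 0.16 and Mmp2 at 4.70 ± 0.40, and its Timp2 and Timp3 values overlapped. In splenic C26 the 5 genes from Timp3 at 4.80 ± 0.33 to Timp4 at 4.15 ± 0.49 overlapped as neighbours, with Timp2 in the middle at 4.32 ± 0.94. In subcutaneous C26 the level of Timp2 was 4.59 ± 0.43, that of Timp3 4.53 ± 0.34 and that of Timp4 4.33 ± 0.17, and these overlapped as well. That order depends on the lengths the deposited scale implies. With annotated exon lengths instead, sham ran from Timp2 at 5.81 ± 0.14 (log2 CPM per kb) through Mmp2 at 4.57 ± 0.15, Timp3 at 4.52 ± 0.09, Adamts1 at 3.29 ± 0.31, Adamts5 at 1.82 ± 0.14, Timp4 at 1.64 ± 0.27 and Mmp14 at 1.52 ± 0.17 to Timp1 at -1.11 ± 0.26, which places Timp4 and Mmp14 lower. Timp1 had the lowest mean on either per-length scale in all 4 groups, at 0.51 ± 0.71 on the deposited scale in splenic and 0.91 ± 0.41 in subcutaneous C26. In both tumour groups its libraries overlapped those of Adamts5 on either scale. With annotated exon lengths, Timp1 was at 0.92 ± 0.41 and Adamts5 at 0.96 ± 0.46 in subcutaneous C26.

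On the linear form of that per-length scale the summed level of the 4 inhibitors was 114 ± 5.69 (SD, n = 4) in sham and 72.5 ± 27.0 in splenic C26, whose libraries ranged from 53.3 to 112. It was 111 ± 19.1 in control and 70.6 ± 12.4 in subcutaneous C26. The makeup of that sum shifted. Timp2 made up 53.0% ± 3.75 in sham and 30.1% ± 11.5 in splenic C26, and 49.1% ± 3.30 in control and 34.6% ± 3.86 in subcutaneous C26. Timp4 made up 11.5% ± 1.83 in sham and 25.9% ± 4.25 in splenic C26, and 11.4% ± 2.09 in control and 29.2% ± 5.39 in subcutaneous C26, with no overlap in either model. Timp3 held 35.1% ± 2.64 in sham and 41.5% ± 11.5 in splenic C26, and 38.7% ± 2.32 in control and 33.4% ± 3.81 in subcutaneous C26. The share of Timp1 was 0.412% ± 0.094 in sham and 2.49% ± 1.62 in splenic C26, and 0.771% ± 0.283 in control and 2.78% ± 0.739 in subcutaneous C26. The length that the deposited scale implies for Timp4, 1.41 kb, is far shorter than its 5894 annotated exon bases. The sum, the share of Timp4 and the shares of the other inhibitors depend on that length, also where groups are compared. Only the order of the libraries by their Timp4 share does not. The implied length of Timp3, 4.68 kb, is also shorter than its 8144 annotated exon bases. All the shares, and that order too, can depend on the length used for Timp3.

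Ratios of counts within a library set an inhibitor against a protease without any scaling between libraries; they are described here with no test. Timp2 to Mmp14, the pair that meets on the Mmp2 precursor, was 13.1, 11.6, 11.3 and 15.6 in sham replicates 1 to 4 and 6.12, 3.04, 1.49 and 1.41 in splenic C26. It was 11.7, 12.6, 12.3 and 10.5 in control and 2.91, 3.01, 5.81 and 3.07 in subcutaneous C26. Every tumour library was below every tumour-free library, including splenic replicate 1, where Timp2 itself was near the sham level. Timp2 by itself already separated the groups within each model, so this ratio is not an independent result. The share of other gene pairs separated in this way was not computed. Timp2 to Mmp2 ranged from 2.40 to 3.08 in sham, 0.619 to 2.25 in splenic C26, 2.34 to 2.63 in control and 1.39 to 1.98 in subcutaneous C26, again without overlap. Timp1 to Mmp2 ranged from 0.00387 to 0.00524 in sham and 0.00794 to 0.0317 in splenic C26, and from 0.00410 to 0.0142 in control and 0.0237 to 0.0448 in subcutaneous C26. Timp3 to Adamts5, an inhibitor and its target protease, ranged from 4.43 to 6.14 in sham, 4.28 to 5.998 in splenic C26, 4.76 to 5.25 in control and 4.71 to 6.18 in subcutaneous C26, so that these ranges overlapped throughout. The mean log2 ratio of Timp3 to Adamts5 was 2.295 ± 0.22 (SD, n = 4), 2.34 ± 0.26, 2.35 ± 0.07 and 2.37 ± 0.17 in the same order.

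**Figure D3:**
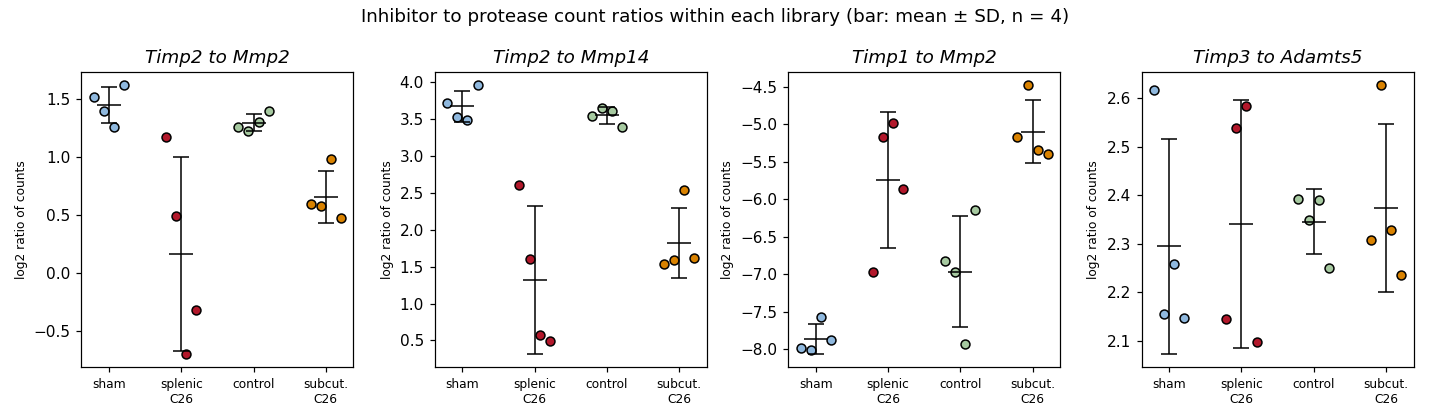
Log2 ratios of counts within each library for the 4 inhibitor and protease pairs, 1 panel per pair, with bars for the group mean and SD (n = 4). Timp2 to Mmp14 lies between 10.5 and 15.6 in tumour-free libraries and between 1.41 and 6.12 in tumour libraries as a linear ratio, while the Timp3 to Adamts5 panel shows overlapping groups.

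Timp3, Mmp2, Mmp14 and Adamts5 varied together inside the groups when these were pooled, with Timp3 apart in sham. With group means removed, the Pearson correlation of log2 CPM over the 16 libraries was 0.90 for Timp3 and Mmp14, 0.88 for Timp3 and Mmp2, 0.86 for Timp3 and Adamts5, 0.87 for Mmp2 and Mmp14, 0.86 for Mmp2 and Adamts5 and 0.88 for Mmp14 and Adamts5. The low libraries were splenic replicate 2 and subcutaneous replicates 2 and 3 for each of the 4 genes. Without removing group means, Mmp14 and Adamts5 had a correlation of -0.03 and Timp3 and Adamts5 one of 0.94. These are descriptions over libraries that share their scaling, with pairs picked after their values were seen. Mmp14 was higher and Timp3 and Adamts5 lower in the mean of the tumour groups, despite these pooled within-group correlations. The libraries did not rank alike in every group. In sham, replicate 1 was the highest for Timp3 (206 CPM) and the lowest for Mmp2 (68.9), Mmp14 (15.1) and Adamts5 (33.5). Timp1, Timp4 and Adamts1 did not join this set, with within-group correlations to its 4 genes of -0.05 to 0.42. Timp2 was less clearly apart, at 0.61 with Mmp2, 0.57 with Adamts5, 0.41 with Timp3 and 0.36 with Mmp14.

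Fibro-adipogenic progenitor markers, 10 of 10 measured and none at 0, were lower with the tumour: 7 fell, 0 rose and 3 were not called in the splenic model, and 6 fell, 1 rose and 3 were not called in the subcutaneous model. Over all genes, 23.9% were called lower in the splenic model and 23.1% in the subcutaneous model. The summed level of the progenitor markers was 1925 to 2587 CPM in sham, 722 to 2294 in splenic C26, 1404 to 2861 in control and 741 to 1378 in subcutaneous C26. Most of this sum was Gsn, which averaged 1592 of 2198 CPM in sham and 899 of 1186 in splenic C26. It averaged 1628 of 2226 CPM in control and 742 of 1072 in subcutaneous C26. Gsn was not called in the splenic model. The mean log2 CPM used below weighs the markers alike. Timp2 followed these markers library by library, with a Pearson correlation of 0.99 between log2 CPM of Timp2 and the mean log2 CPM of the markers over 16 libraries and 0.98 with group means removed. Without splenic replicate 1, over 15 libraries, the values were 0.99 and 0.96. Adamts5 had 0.74 and 0.54, Mmp2 0.67 and 0.62, Timp3 0.71 and 0.39, Timp4 -0.21 and 0.68, and Mmp14 -0.36 and 0.36. Other marker lists also tracked Timp2, satellite cell markers at 0.84 (0.91 with group means removed), pericyte and smooth muscle markers at 0.81 (0.86), endothelial markers at 0.52 (0.77) and macrophage and monocyte markers at 0.37 (0.80). The part of these cells in the level of Timp2 was not tested. Tendon markers, 7 of 7 measured and none at 0, had 5 lower and 0 higher in each model; their sum was 382 to 511 CPM in sham, 86.4 to 408 in splenic C26, 254 to 388 in control and 62.9 to 156 in subcutaneous C26. Against the tendon markers Timp2 had a correlation of 0.90, and 0.76 with group means removed; the part of tendon in its level was not tested.

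**Figure D4:**
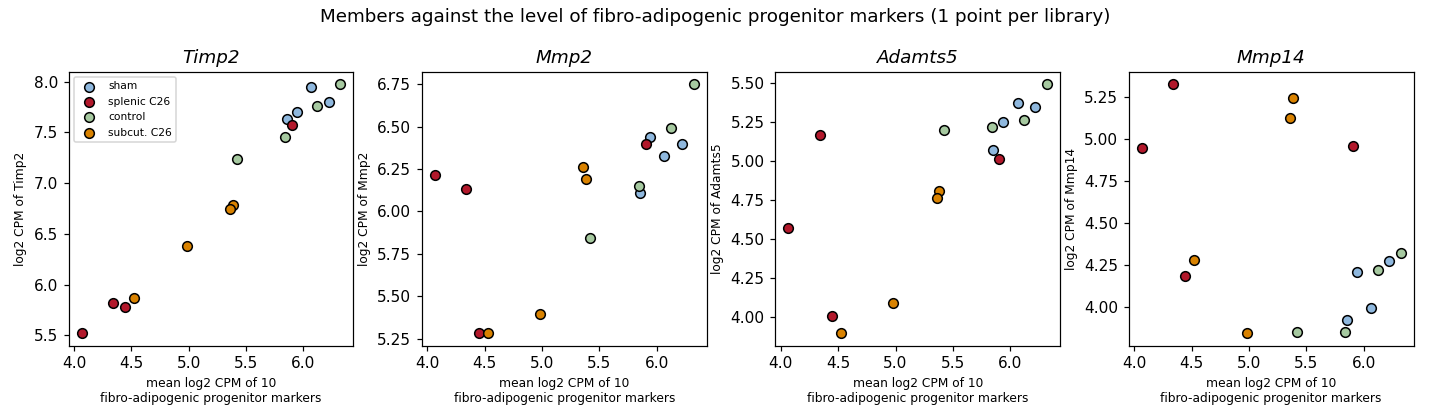
Log2 CPM of Timp2, Mmp2, Adamts5 and Mmp14 against the mean log2 CPM of 10 fibro-adipogenic progenitor markers, 1 point per library, coloured by group. Timp2 lies along a line over all 16 libraries (Pearson correlation 0.99), splenic replicate 1 among the sham libraries included.

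Macrophage and monocyte markers, 10 of 10 measured and none at 0, summed to 246 to 329 CPM in sham, 181 to 401 in splenic C26, 150 to 321 in control and 162 to 452 in subcutaneous C26. Subcutaneous replicates 1 and 4, with 452 and 419 CPM of these markers, were the libraries with the higher Mmp14, and replicates 2 and 3, with 206 and 162, were those with the lower. In the splenic group this did not hold for replicate 3, which had 181 CPM of the markers and 30.8 CPM of Mmp14. The within-group correlation with these markers was 0.71 for Mmp14, 0.80 for Timp2, 0.77 for Mmp2, 0.72 for Adamts5 and 0.70 for Timp3, so it was not particular to Mmp14. The part of these cells in the levels was not tested. Epithelial markers, looked for because C26 is a colon carcinoma, were measured for 1 of 8 genes, Krt19, at 0 to 0.794 CPM.

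For each gene the 3 most similar genes by Pearson correlation of log2 CPM over 16 libraries were taken from 9127 genes with a mean of at least 5 CPM. Timp2 was most like Tnxb (0.99; 0.98 with group means removed), followed by Abi3bp and Pianp, all at 0.99. Tnxb, which encodes the matrix glycoprotein tenascin X, fell in both models by log2 fold changes of -1.31 and -1.22. Timp3 and Adamts5 shared Kirrel as the most similar gene, at 0.95 and 0.97; Rnd3 and Plxdc2 followed for Timp3, and Plau, the urokinase that activates plasminogen, and Dcbld2 for Adamts5. Mmp14 was most like Ifngr1, the interferon gamma receptor chain (0.95), then Ripk1 and Ninj1, and Mmp2 was most like Fst, the activin antagonist follistatin (0.92), then Dpep1 and Ntn1. Timp1 was most like Taf4b (0.94), then Chst11 and Klhl40. Timp4 had lower values, 0.86 with Adcy4 and then Dnm3 and Ppp1r3c. Adamts1 was most like Fos (0.82), then Adpgk and Med10. Fos, an AP-1 subunit, peaked at 89.8 CPM in splenic replicate 4 and 116 in subcutaneous replicate 2, the libraries with the highest Adamts1 of their groups.

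The rest of the protease system moved in both directions. For the list counts here and below, 28.1% of all genes were called higher and 23.9% lower in the splenic model. In the subcutaneous model these shares of all genes were 27.0% and 23.1%. Of 21 other Mmp genes 10 were measured, and in each model 2 rose, 2 fell and 6 were not called. Mmp3, the broad-range protease stromelysin, rose from 0.630 to 4.84 CPM in the splenic model (log2 fold change 2.94 ± 0.43 SE, edgeR adjusted p = 0.000163) and from 0.858 to 10.04 in the subcutaneous model (3.52 ± 0.42, adjusted p = 5.44e-05). Mmp23 fell from 2.69 to 0.831 and from 1.77 to 0.801 CPM, by log2 fold changes of -1.66 and -1.14. The other gene that rose in the splenic model was Mmp8, from 0.0371 to 2.88 CPM, where 7 of 8 neutrophil markers also rose. The part of neutrophil transcripts in Mmp8 was not tested. Among 19 measured of 23 other Adamts and Adamtsl genes, 5 rose and 9 fell in the splenic model, and 4 rose and 9 fell in the subcutaneous model. Adamts4, the other aggrecanase, rose from 0.345 to 8.56 CPM and from 0.290 to 3.62, by log2 fold changes of 4.60 ± 0.76 SE (edgeR adjusted p = 0.000357) and 3.60 ± 0.75 SE (adjusted p = 0.00158). Adamts20 fell by log2 fold changes of -2.34 ± 0.39 and -2.67 ± 0.39. The median log2 fold change of these 19 genes was -0.33 and -1.21. Of 12 Adam genes 11 were measured, with 1 higher and 5 lower in each model; Adam17, the tumour necrosis factor sheddase that Timp3 inhibits, fell by log2 fold changes of -1.05 ± 0.17 (edgeR adjusted p = 0.000280) and -0.46 ± 0.17 (adjusted p = 0.0303), and Adam33 by -2.02 and -2.60.

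Activators, other inhibitors and clearance receptors, 14 measured of 16, had 4 higher and 5 lower in the splenic model and 2 higher and 7 lower in the subcutaneous model. These counts include Plg, which took the directions of the hepatocyte markers. It averaged 0.0546 CPM in sham and 1.03 in splenic C26, and 4.60 in control and 0.0952 in subcutaneous C26. The part of liver transcripts in its values was not tested. Furin, the convertase that removes the propeptide of Mmp14 and Adamts enzymes, rose from 59.6 to 99.9 CPM and from 61.5 to 112, by log2 fold changes of 0.75 ± 0.15 SE (edgeR adjusted p = 0.00123) and 0.86 ± 0.15 SE (adjusted p = 0.000518). Serpine2, an inhibitor of plasminogen activators and thrombin, fell by log2 fold changes of -1.08 ± 0.22 and -0.90 ± 0.21. The matrix proteins these enzymes cut, 17 measured of 19, had 0 higher and 13 lower in the splenic model and 0 higher and 12 lower in the subcutaneous model, with median log2 fold changes of -1.58 and -1.45. Col5a1 fell from 106 to 23.8 CPM and from 91.0 to 12.5, and Fbn1, fibrillin, from 153 to 29.7 and from 113 to 25.8. Timp2 and Timp3 thus fell beside these matrix genes in both models, and Adamts5 in the subcutaneous model. Mmp2 was not called in either, and Timp1, Timp4, Mmp14 and Adamts1 had positive log2 fold changes in both.

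IL-6 family, STAT3 and AP-1 genes, 12 measured of 13, had 9 higher and 1 lower in the splenic model and 11 higher and 1 lower in the subcutaneous model. Il6ra rose from 8.15 to 125 CPM and from 5.41 to 122 (log2 fold changes 3.94 ± 0.35 and 4.50 ± 0.36 SE, edgeR adjusted p = 8.80e-06 and 5.16e-06), and Socs3, the feedback inhibitor of STAT3 signalling, rose from 4.25 to 127 CPM and from 4.86 to 81.3. The TGF-beta axis, 9 measured of 10, had 3 higher and 1 lower in the splenic model and 2 higher and 2 lower in the subcutaneous model. Both receptor genes rose: Tgfbr1 by log2 fold changes of 0.96 ± 0.20 and 1.33 ± 0.20 SE, and Tgfbr2 by 1.21 ± 0.25 and 1.26 ± 0.25 SE.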

How the data were processed

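Per the labels' protocols, the 16 quadriceps RNA samples were isolated and sequenced together. The authors made the deposited table of raw read counts per gene with STAR and featureCounts, per the labels; the submitters' processing notes name FastQC, STAR, edgeR and mm10. Versions, annotation and strand setting were not given in the sources used here. The second deposited table holds log2 values; a single constant per gene and a single constant per library turn log2 CPM into them (residual SD 0.00276 over 8622 genes), so they compare genes per length. The count table held 13320 genes, of which filterByExpr removed 0, and 4013 blank lines, which were left out.

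The tumour label gave each sample its group; replicate numbers follow accession order. Each gene was fitted in R 4.3.3 by the quasi-likelihood method of edgeR 4.0.16 (TMM scaling, robust dispersion, 4 group means over 16 libraries), with Benjamini-Hochberg adjustment over all genes and a threshold of 0.05, after a check on simulated data. The SE is the log2 fold change divided by the root of F. No library repeated another of its group (chi-square per degree of freedom of 12.9 or more). Log2 CPM used a prior count of 2. The 8 genes, the gene lists and the motifs were chosen with earlier results of these data known. Named list genes are the 2 with the smallest p of each list; most similar genes are the 3 with the highest correlation and no predicted-model symbol. Alternatives were RLE and upper-quartile scaling, no count filter, a mean of at least 5 CPM, DESeq2 1.42.0, limma-voom and limma-trend (limma 3.58.1), 8 libraries only, a threshold of 0.01, removal of the 10 most abundant genes, omission of each library, omission of 2 sets of libraries, and, chosen after seeing the data, omission of the 3 libraries with the highest hepatocyte markers.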

Additional observations from a re-analysis of the deposited data

Results flagged for a closer look

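Of 32 sets of 4 libraries (8 genes in 4 groups), 3 held a library whose gap to the nearest other exceeded Dixon's 95% critical value for the range of its set; chance gives about 1 in 20. Timp1 was 0.291 CPM in control replicate 3, where the other control libraries had 0.794 to 0.858 CPM (gap of 0.887 of the range, on 8 reads). Timp2 was 190 CPM in splenic C26 replicate 1, where the other splenic libraries had 45.9 to 56.3 CPM (0.928 of the range). Timp3 was 206 CPM in sham replicate 1, where the other sham libraries had 181 to 182 CPM (0.928 of the range).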

How the results depend on the processing

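Of the 8 genes, 5 were called in each tumour model. With an adjusted p under 0.01 the count was 2 in the splenic model (Timp1 and Timp2) and 2 in the subcutaneous model (Timp3 and Adamts5), beside 33.1% and 31.3% of all genes. It was 3 in the subcutaneous model with a mean of at least 5 CPM, which removes Timp1 from the test (54.4% of all genes called), and under which Timp4 was not called (0.56, edgeR adjusted p = 0.0637). Without splenic C26 replicates 1 and 3, control replicate 1 and subcutaneous C26 replicate 4 it was 2 in the splenic model (54.2% of all genes). Leaving out 1 library at a time gave 2 to 5 in the splenic model, with 2 without sham replicate 1 and 3 without sham replicate 2 (46.2% and 45.2% of all genes), and 4 to 6 in the subcutaneous model. DESeq2 called 6 in the subcutaneous model, Mmp14 added (0.65, adjusted p = 0.0478), beside 53.2% of all genes. The remaining alternatives kept each count within 1.5 times, and no called fold change of the 8 genes reversed. For the difference between the tumour effects and for sham against control, 0 of the 8 were called under every alternative run, although over all genes the count for the difference was 66 without splenic C26 replicate 2, 9 without splenic C26 replicate 1 and 257 without splenic C26 replicate 1 and subcutaneous C26 replicate 3, and that for sham against control was 49 without splenic C26 replicate 1. The cause of these changes was not tested beyond the fewer libraries or genes in the fits concerned. No paired analysis was possible because replicate numbers follow accession order and name libraries only. Depth limits Timp1 alone, at 8 to 64 reads per library.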

Other observations

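Satellite cell markers, 6 of 6 measured, had 1 higher and 1 lower in each model. Sdc4, the syndecan that is also made outside satellite cells, rose from 24.2 to 156 CPM in the splenic model (log2 fold change 2.69 ± 0.49 SE, edgeR adjusted p = 0.000670) and from 23.0 to 99.98 CPM in the subcutaneous model (2.12 ± 0.48 SE, adjusted p = 0.00274). Calcr, a marker of quiescent satellite cells, fell from 0.834 to 0.216 CPM and from 0.734 to 0.149.

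Syn2, within whose span Timp4 lies on the opposite strand, rose in the splenic model by a log2 fold change of 3.70 (edgeR adjusted p = 0.000251) and in the subcutaneous model by 2.60 (adjusted p = 0.00154). Its libraries ranged from 0.581 to 0.860 CPM in sham and 2.52 to 18.1 in splenic C26, and from 0.576 to 2.01 in control and 3.77 to 12.5 in subcutaneous C26.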
